A study of Mus musculus with 36 samples.

Results

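Matrix metalloproteinases (MMPs), the related ADAMTS proteases, the ADAMTS-like proteins and the tissue inhibitors of metalloproteinases (TIMPs) were followed in cultured mouse lung endothelial cells (ECs) of 3 genotypes. Members were taken by gene symbol from the table of mRNA counts (all Mmp, Adamts, Adamtsl and Timp genes, and Thsd4, which encodes a protein of the ADAMTS-like family), which gave 52 of 51826 genes. Prog-Tg ECs carried Cdh5TA, a tetracycline-controlled trans-activator under the VE-cadherin promoter, together with the TetOp-LAG608G minigene, a human lamin A gene with the progeria mutation that leads to progerin. The paper reports that this transgene yields progerin and unmutated human lamin A in similar amounts. LA-Tg ECs carried the same trans-activator with the TetOp-LA minigene, which makes unmutated human lamin A. WT ECs came from littermates. The mice were kept on a mainly C57BL/6J background. The trans-activator line came from FVB mice and the backcross was not complete, so FVB segments may remain. Whether such segments differ between the genotypes was not tested. Each genotype had 3 libraries of poly(A) RNA from ECs of mice aged 10 to 15 days, sorted on ICAM-2 and harvested at passage 3. The trans-activator is on in endothelium only, the cells had been through culture, and it is not stated in the sources used here whether a library came from 1 mouse or several. The p values below therefore measure the spread between these libraries.

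MMPs are zinc proteases that cut collagens, gelatins, elastin and other matrix proteins. Most are made as inactive proenzymes that other proteases must cut first. ADAMTS proteases carry thrombospondin repeats and cut procollagens, the large proteoglycans aggrecan and versican, or von Willebrand factor, whereas the ADAMTS-like proteins lack the protease domain and several of them bind fibrillin microfibrils. TIMPs are small secreted proteins that block the active site of MMPs and, in the case of Timp3, of several ADAMTS proteases. In vessels, these enzymes and inhibitors act on the basement membrane and on the elastic wall.

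Library totals were 17961152 to 67602012 counts, the highest in Prog-Tg 3, and 20872 to 25325 genes had a count in a library. A count of 3, taken as the floor, was 0.0433 to 0.174 CPM depending on the library, where CPM are the counts of a gene scaled to a common library size. The 10 endothelial markers had counts in all 9 libraries, with a summed level of 7576 to 11559 CPM in Prog-Tg, 10003 to 12368 CPM in LA-Tg and 8645 to 11030 CPM in WT ECs. The 7 lymphatic endothelial markers summed to 1648 to 5245 CPM in Prog-Tg, 1435 to 9244 CPM in LA-Tg and 5106 to 8611 CPM in WT ECs. Fibroblast markers summed to 800.5 to 1513 CPM in Prog-Tg, 631 to 1109 CPM in LA-Tg and 447 to 1009 CPM in WT ECs, although the fibroblast genes Lum, Dpt and Tcf21 stayed under 1 CPM in every library. Summed pericyte and smooth muscle markers ranged from 20.3 to 93.6 CPM in Prog-Tg, from 1.43 to 295 CPM in LA-Tg and from 3.44 to 69.7 CPM in WT ECs.

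A cluster of 10 Mmp genes lies in 427 kb of chromosome 9 (GRCm38, 7272514 to 7699585), in the order Mmp13, Mmp12, Mmp1b, Mmp3, Mmp1a, Mmp10, Mmp8, Mmp27, Mmp20 and Mmp7. It holds the members with the largest fold changes above 0 described below. Their promoters are shown because most cluster genes hold a short motif that was not found in the other members with a known promoter, in the same window. The motif is TGACTCA, or TGAGTCA on the other strand, the binding sequence of AP-1, a dimer of Fos and Jun proteins through which phorbol ester and inflammatory cytokines are known to act on Mmp genes. Promoters (RefSeq, GRCm38.p6, 250 bases before to 50 bases after the start) were found for 37 of the 52 members. The motif was present in 7 of the 10 cluster genes and in 0 of the 27 other members with a promoter, against 5.20% of all 32851 promoters of this length. Below are the 120 bases before the start site of the 4 cluster genes abundant enough to be tested and of the paralogs Mmp1a and Mmp1b, read 5′ to 3′ on the strand of the gene, with the motif in capitals.
Mmp3 (chr9:7445702-7445821, + strand): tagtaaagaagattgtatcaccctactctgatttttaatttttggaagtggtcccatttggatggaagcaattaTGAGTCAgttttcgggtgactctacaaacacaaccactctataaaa
Mmp13 (chr9:7272394-7272513, + strand): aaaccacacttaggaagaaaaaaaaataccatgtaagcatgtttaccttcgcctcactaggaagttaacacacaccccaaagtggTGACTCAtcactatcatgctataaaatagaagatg
Mmp10 (chr9:7502222-7502341, + strand): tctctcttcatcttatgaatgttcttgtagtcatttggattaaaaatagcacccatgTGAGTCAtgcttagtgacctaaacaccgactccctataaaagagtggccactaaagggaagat
Mmp12 (chr9:7347254-7347373, + strand): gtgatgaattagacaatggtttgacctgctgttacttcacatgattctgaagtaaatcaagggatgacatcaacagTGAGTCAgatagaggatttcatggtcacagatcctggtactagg
Mmp1a (chr9:7464021-7464140, + strand): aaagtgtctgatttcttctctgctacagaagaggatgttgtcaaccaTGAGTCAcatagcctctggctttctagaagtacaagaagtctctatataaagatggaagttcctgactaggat
Mmp1b (chr9:7388027-7388146, - strand): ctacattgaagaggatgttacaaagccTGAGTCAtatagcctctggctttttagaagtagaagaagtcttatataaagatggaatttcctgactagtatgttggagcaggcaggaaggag

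The first base of the motif lay 46 bases before the start in Mmp3, 35 in Mmp13, 63 in Mmp10, 73 in Mmp1a and 93 in Mmp1b. Mmp12 has 2 annotated starts, and the motif lay 44 bases before the second of them, which is the one shown. Mmp7 also held it, 63 bases before its start. The letters TATAAA or TTTATA, the core of a TATA box, were found in the promoters of 9 of the 10 cluster genes, of 3 of the 27 other members and of 13.62% of all promoters. This count takes a match at any position. In the cluster it lay 28 bases before the start in Mmp1a, 29 in Mmp10, and 123 and 26 in Mmp7. It lay 16 bases before the start in Mmp13, 49 in Mmp1b, 58 in Mmp20, 7 in Mmp3 and 3 in Mmp8, and after the second start in Mmp12. A match of letters is a description of the sequence, and binding was not measured here.

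Of the 52 members, 19 exceeded 1 CPM in all 9 libraries, 33 did so in at least 1, and Mmp7 (matrilysin) had no count in any, which allows at most 3 counts or 0.0433 to 0.174 CPM per library. The filter on low counts was passed by 31 members, which were tested among 14584 genes. The other 21 were low: in 15 the highest library stayed under 0.5 CPM, and the highest value of all was 2.63 CPM, for Mmp9 (gelatinase B) in Prog-Tg 3. The level of Mmp9 was 0.44, 0.33 and 2.63 CPM in Prog-Tg, 0.21, 0.058 and 0.050 CPM in LA-Tg and 0.18, 0.19 and 0.73 CPM in WT ECs.

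Per exon length, Timp2 and Timp3 were the most abundant members. Mean levels over the genotypes were 222 RPKM (CPM per kb of exon) for Timp2, 64.1 RPKM for Timp3 and 43.5 RPKM for Timp1. Timp4, the fourth inhibitor, stayed at or under 0.24 CPM in all 9 libraries. Among the proteases, Mmp2 (gelatinase A) and Mmp14 (MT1-MMP, the membrane protease that activates proMMP2 in a complex with Timp2) led with 54.1 and 31.2 RPKM. Adamts1 followed with 25.0 RPKM, Adamts7 with 22.9 RPKM and Adamts4 with 11.7 RPKM. The interstitial collagenase Mmp13 (2.51 RPKM) and the stromelysin Mmp3 (5.86 RPKM) stood well below them, and these means rest on a single library, as shown next. The leading ADAMTS-like gene was Adamtsl4 (4.44 RPKM).

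**Figure D1:**
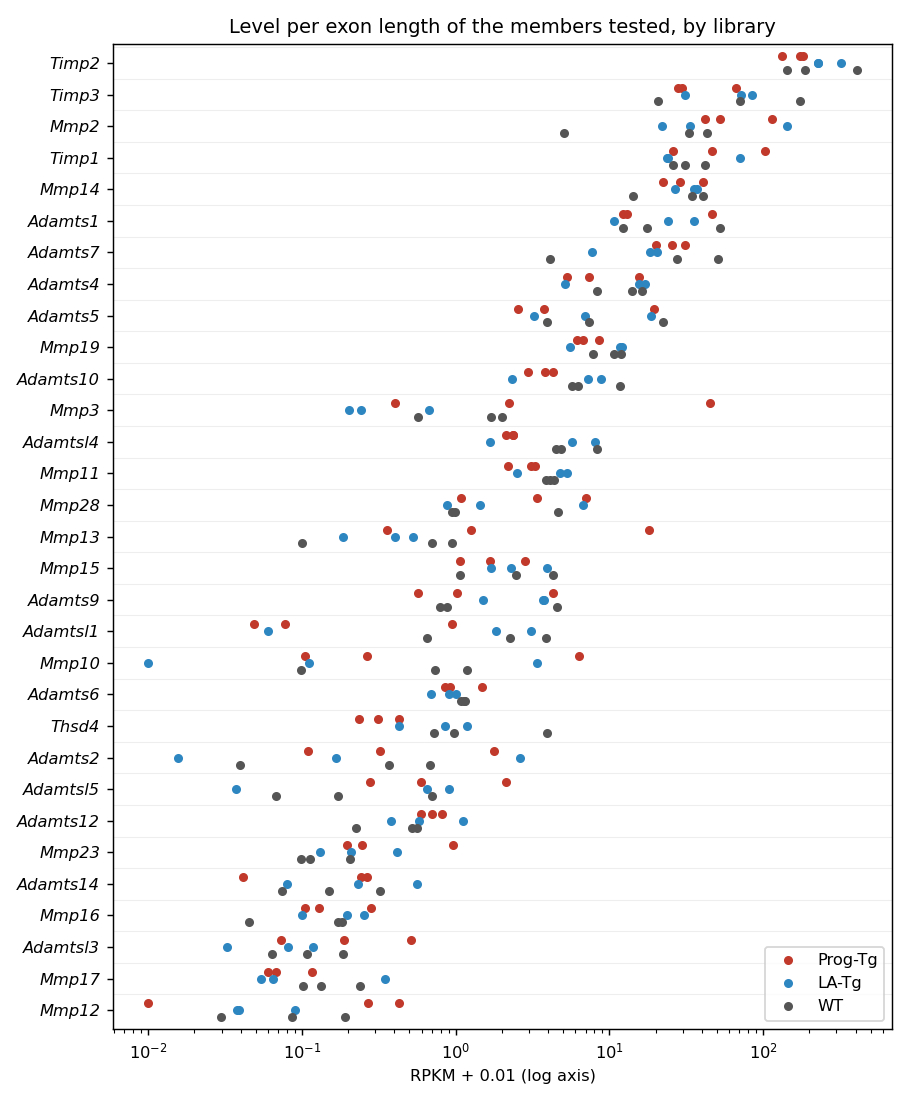
Level per exon length (RPKM + 0.01, log axis) of the 31 members tested, ordered by their mean, with each point a library, coloured by genotype (Prog-Tg, LA-Tg, WT). Timp2, Timp3, Mmp2 and Timp1 lie at the top, and for Mmp3, Mmp13 and Mmp10 1 Prog-Tg library lies far to the right of the others of its genotype.

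Levels of these genes varied more between libraries of a genotype than those of most genes. The median SD of log2 CPM within a genotype was 0.83 over the 31 members and 0.32 over all genes tested, at a median level of 12.7 CPM for the members and 21.1 CPM for all genes tested. The spread was not even over the libraries. Prog-Tg 3 was the highest library for 9 members, among them Mmp3, Mmp10, Mmp13, Mmp23 and Timp1, and for 12.7% of all genes. WT 2 was the highest library for 7 of the 31 members, among them Thsd4, Adamtsl4, Adamts10, Timp2 and Timp3. That share is near the 19.4% of all genes for which it was highest. Several of the values that follow rest on these 2 libraries, and values without them are given where they differ most.

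Prog-Tg and WT ECs were compared first. By the labels they differ in both the trans-activator and the transgene. Because this transgene gives lamin A as well as progerin, the comparison does not isolate progerin. No member passed an adjusted p under 0.05 (edgeR's quasi-likelihood test with Benjamini-Hochberg adjustment, adjusted p 0.83 to 0.99), as was the case for all 14584 genes (0% called, with 496 genes or 3.4% at an unadjusted p under 0.05). At the thresholds used in the study (unadjusted p under 0.05 and a fold change over 1.5), 6 of the 31 members passed, against 2.76% of all genes tested. Mmp13, Mmp3 and Mmp23 were above WT (3 of 31, background 0.939%), and Thsd4, Adamtsl4 and Adamts10 were below it (3 of 31, background 1.82%). With limma-voom, the study's own method, 2 of these 6 passed, Thsd4 (-2.25, unadjusted p = 0.017) and Adamtsl4 (-1.28, unadjusted p = 0.037), whereas the unadjusted p was 0.10 for Mmp13, 0.18 for Mmp3, 0.062 for Mmp23 and 0.067 for Adamts10. The median log2 fold change of the members was -0.04, against -0.01 for all genes, with 15 of the 31 members above 0 (49% of all genes) and 16 below.

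The higher members were proteases of the chromosome 9 cluster and Mmp23, and all 3 were highest in Prog-Tg 3, Mmp3 and Mmp13 by far. Mmp3, a stromelysin that cuts proteoglycans and activates other proMMPs, stood at 4.01, 0.71 and 80.7 CPM in Prog-Tg ECs, against 3.05, 1.01 and 3.60 CPM in WT ECs. Mmp13, the main collagenase of mice, stood at 3.35, 0.93 and 48.7 CPM in Prog-Tg ECs, against 1.86, 0.24 and 2.504 CPM in WT ECs. Replicates 1 and 2 of Prog-Tg thus lay within or near the range of WT, and only Prog-Tg 3 was far above it. The fitted log2 fold change was 3.48 (SE 1.46, unadjusted p = 0.043) for Mmp3 and 3.53 (SE 1.41, unadjusted p = 0.036) for Mmp13. Without Prog-Tg 3 it was -0.12 for Mmp3 and 0.47 for Mmp13. Without WT 2 it was 3.10 for Mmp3 (unadjusted p = 0.115) and 3.02 for Mmp13 (unadjusted p = 0.089).

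Mmp23 encodes a membrane-anchored MMP that is released by furin-type cleavage. Its level was 0.55, 0.44 and 2.23 CPM in Prog-Tg ECs, against 0.46, 0.24 and 0.21 CPM in WT ECs, a log2 fold change of 1.82 (SE 0.764, unadjusted p = 0.043). It too was highest in Prog-Tg 3, without which the log2 fold change was 0.67. In LA-Tg ECs Mmp23 stood at 0.29, 0.46 and 0.95 CPM. At these low levels only Prog-Tg 3 had more than 20 counts of Mmp23 (154 counts), and it was also the library with the most counts in total (67602012). Thus 0 members remained above WT at the study thresholds when Prog-Tg 3 was left out, and the count was also 0 without WT 2 or without WT 3.

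Mmp10 (stromelysin 2) and Mmp12 (macrophage elastase) complete the cluster genes that were tested. Mmp10 stood at 0.44, 0.16 and 10.9 CPM in Prog-Tg, 0, 0.17 and 5.79 CPM in LA-Tg and 0.15, 1.25 and 2.03 CPM in WT ECs. The third replicate was therefore the highest of each genotype for Mmp10. Its log2 fold change in Prog-Tg versus WT was 1.78 (SE 1.97), and -1.89 without Prog-Tg 3. Mmp12 stood at 3.02, 0 and 1.88 CPM in Prog-Tg, 0.21, 0.58 and 0.20 CPM in LA-Tg and 0.55, 0.14 and 1.30 CPM in WT ECs, a log2 fold change of 1.30 (SE 1.24) in Prog-Tg versus WT. Unlike the stromelysins, Mmp12 was highest in Prog-Tg 1, and it shares 157 bp of exon with Mmp1b on the opposite strand, so that reads there cannot be assigned if strand was not used in counting.

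The remaining cluster genes did not pass the filter. Mmp1a stood at 0.11, 0.55 and 1.11 CPM in Prog-Tg, 0.052, 0.29 and 0.10 CPM in LA-Tg and 0.21, 0.048 and 0 CPM in WT ECs. Mmp1b stood at 0.055, 0.22 and 0.45 CPM in Prog-Tg, 0, 0.52 and 0 CPM in LA-Tg and 0.030, 0 and 0 CPM in WT ECs. These paralogs of the interstitial collagenase gene are close copies of each other, as their promoters above show, so reads may be split or lost between them. Mmp8 (neutrophil collagenase) stood at 0.38, 0 and 0.36 CPM in Prog-Tg, 0, 0 and 0.050 CPM in LA-Tg and 0.030, 0 and 0 CPM in WT ECs, and 7 of these 9 values lie under the floor of 3 counts. Markers of neutrophils, its best known source, were low: Ly6g was at 0 in all 9 libraries, and the 4 neutrophil markers summed to 1.91 to 2.80 CPM in Prog-Tg, 0.10 to 2.03 CPM in LA-Tg and 0.048 to 1.52 CPM in WT ECs.

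**Figure D2:**
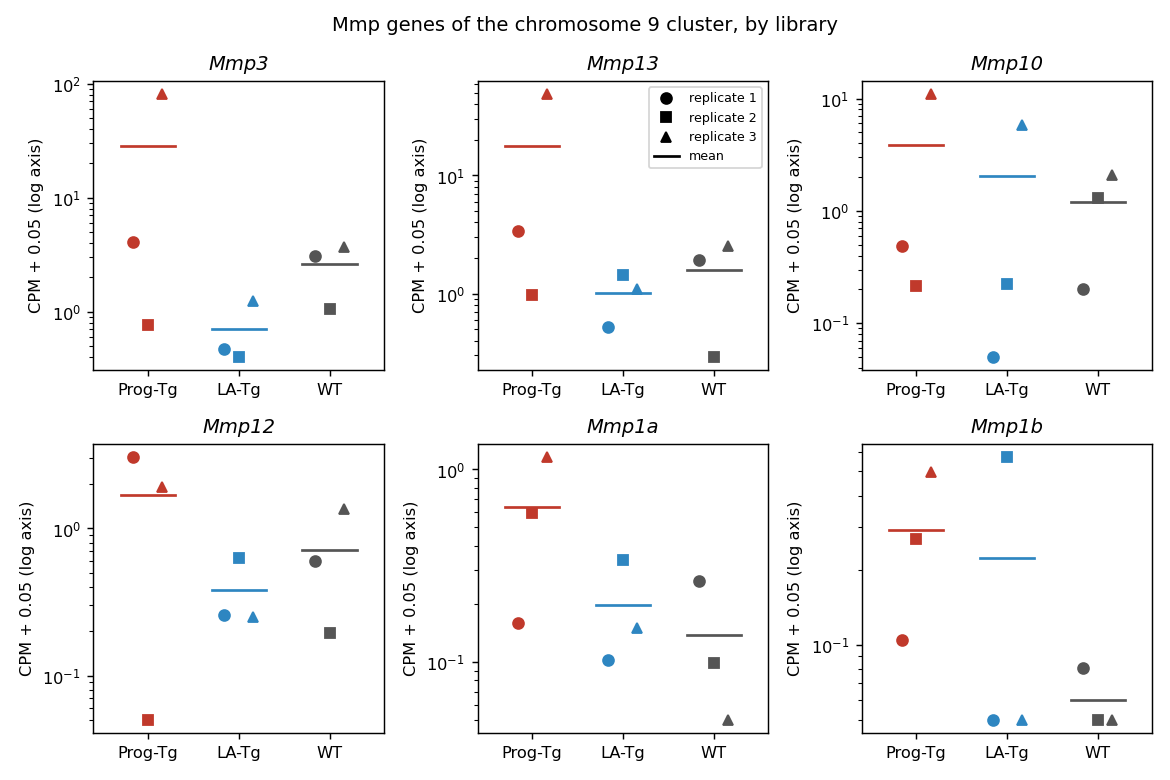
Levels (CPM + 0.05, log axis) of 6 Mmp genes of the chromosome 9 cluster in Prog-Tg, LA-Tg and WT ECs, with each marker shape a replicate number and each line a mean. Prog-Tg 3 (triangle) was the highest library for Mmp3 (80.7 CPM), Mmp13 (48.7 CPM), Mmp10 (10.9 CPM) and Mmp1a, but not for Mmp12 or Mmp1b.

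The genes of the AP-1 subunits, whose motif most of the cluster promoters hold, were taken as a list. All 7 listed subunits were tested, and 0 passed the study thresholds in any comparison. In Prog-Tg versus WT 7 of 7 lay above 0 (49% of all genes), with a median log2 fold change of 0.43. In LA-Tg versus WT 5 of 7 did (49% of all genes, median 0.09). In Prog-Tg versus LA-Tg 4 of 7 did (49.6% of all genes, median 0.04). Fosb stood at 122, 678 and 126 CPM in Prog-Tg, 94.1, 757 and 79.8 CPM in LA-Tg and 110, 98.1 and 124 CPM in WT ECs. It was high in Prog-Tg 2 and LA-Tg 2. Fos, Jun, Junb and Jund also had their highest Prog-Tg level in Prog-Tg 2, the Prog-Tg library with the lowest Mmp3 and Mmp13, whereas Fosl2 had it in Prog-Tg 1. Fos was at 192, 467 and 147 CPM in Prog-Tg ECs, against 181, 196 and 220 CPM in WT ECs. Junb was at 131, 465 and 149 CPM in Prog-Tg ECs, against 141, 171 and 192 CPM in WT ECs. Fosl1 alone of the 7 was highest in Prog-Tg 3, at 30.6, 28.7 and 42.0 CPM in Prog-Tg, 10.3, 22.3 and 9.04 CPM in LA-Tg and 24.8, 2.596 and 27.4 CPM in WT ECs. The part of AP-1 in the levels of the cluster genes was not tested.

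The fibroblast genes Dcn and Pdgfra were also highest in Prog-Tg 3, although the next libraries were closer than for Mmp3 and Mmp13. Dcn (decorin) was at 279, 44.2 and 408 CPM in Prog-Tg, 19.1, 17.7 and 4.50 CPM in LA-Tg and 149, 0.82 and 171 CPM in WT ECs. Pdgfra, a receptor of fibroblasts, was at 3.40, 2.18 and 8.32 CPM in Prog-Tg, 0.34, 1.92 and 2.40 CPM in LA-Tg and 0.88, 1.44 and 5.79 CPM in WT ECs. The 9 fibroblast markers summed to 1513 CPM in this library, the highest of the 9, while 3 of them stayed near 0 as given above, and 673 CPM of the sum was Thy1, which stood at 493 to 686 CPM in all Prog-Tg and LA-Tg libraries. The collagen genes Col1a1, Col1a2 and Col3a1 were highest in LA-Tg 3, at 342, 211 and 55.4 CPM, against 251, 158 and 13.5 CPM in Prog-Tg 3, and Mmp3 and Mmp13 were at 1.20 and 1.05 CPM in LA-Tg 3. The part of fibroblasts in the levels of Mmp3 and Mmp13 was not tested, and in bulk RNA more cells of a type and more RNA per cell cannot be told apart.

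The 3 members below WT at the study thresholds encode proteins linked to fibrillin microfibrils, the scaffold of elastic fibers. THSD4 promotes microfibril assembly, ADAMTSL4 binds fibrillin and is mutated in human lens dislocation, and ADAMTS10 is mutated in human Weill-Marchesani syndrome, a disorder of microfibrils. Thsd4 stood at 5.82, 4.20 and 3.16 CPM in Prog-Tg ECs, 16.4, 5.80 and 11.7 CPM in LA-Tg ECs and 9.93, 54.7 and 13.6 CPM in WT ECs. Adamtsl4 stood at 9.88, 8.84 and 9.90 CPM in Prog-Tg ECs, 23.9, 7.02 and 34.0 CPM in LA-Tg ECs and 18.7, 35.1 and 20.4 CPM in WT ECs. Adamts10 stood at 35.6, 24.3 and 31.4 CPM in Prog-Tg ECs, 59.8, 19.2 and 73.1 CPM in LA-Tg ECs and 51.7, 97.4 and 47.3 CPM in WT ECs. For all 3 genes every Prog-Tg library was below every WT library, and the Prog-Tg libraries lay close together. The ADAMTS-like group as a whole was divided, with 3 of the 5 members tested below 0 and 2 above. The latter were Adamtsl5 (log2 fold change 1.72, SE 1.28) and Adamtsl3 (1.21, SE 0.815), both highest in Prog-Tg 3.

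The log2 fold change in Prog-Tg versus WT was -2.57 (SE 0.694, unadjusted p = 0.0055) for Thsd4, -1.37 (SE 0.505, unadjusted p = 0.025) for Adamtsl4 and -1.10 (SE 0.476, unadjusted p = 0.048) for Adamts10. WT 2 was the highest WT library for each. Without it the values were -1.42 for Thsd4 (unadjusted p = 0.015), -1.04 for Adamtsl4 (unadjusted p = 0.091) and -0.70 for Adamts10 (unadjusted p = 0.19). Thsd4 passed the study thresholds whichever of the 6 libraries was left out, and it was the only one of the 3 genes that did. It alone was left without WT 2, without Prog-Tg 2 or without Prog-Tg 3, whereas 5 members (these 3 with Timp2 and Timp3) were below WT without WT 3.

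Non-overlap of the groups added Mmp11 and Adamts12 to these 3 genes, which made 5 of 31 members, against 13.7% of all genes. Mmp11 (stromelysin 3) was at 8.62, 6.05 and 9.12 CPM in Prog-Tg ECs, against 10.8, 11.4 and 12.2 CPM in WT ECs. Adamts12, a protease of cartilage oligomeric matrix protein, was the only one above WT, at 7.58, 8.84 and 6.36 CPM in Prog-Tg ECs, against 5.55, 2.36 and 5.998 CPM in WT ECs. Neither passed the study thresholds. Adamts6, a further gene linked to microfibrils, overlapped between these genotypes with 7.14, 6.60 and 11.5 CPM in Prog-Tg ECs, against 8.93, 8.32 and 8.76 CPM in WT ECs.

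Lymphatic markers also differed between the libraries. Prox1, the transcription factor that sets lymphatic endothelial identity, was at 861, 107 and 295 CPM in Prog-Tg, 1735, 77.3 and 1168 CPM in LA-Tg and 1192, 2375 and 718 CPM in WT ECs. The low LA-Tg library for Thsd4, Adamtsl4 and Adamts10 was LA-Tg 2, which also had the lowest Prox1 level of all, and the highest library for the 3 genes was WT 2, which had the highest. Prog-Tg 1 had more Prox1 than WT 3 but less Thsd4, Adamtsl4 and Adamts10. The other lymphatic markers were divided between these 2 libraries. Lyve1 (2121 against 2002 CPM) and Flt4 (1808 against 1081 CPM) were higher in Prog-Tg 1 than in WT 3. Pdpn (434 against 842 CPM), Reln (22.7 against 95.8 CPM), Mmrn1 (0.11 against 366 CPM) and Ccl21a (0.11 against 0.47 CPM) were lower. Adamtsl1, a secreted ADAMTS-like protein named here after its values were seen, was at 11.97, 0.49 and 0.87 CPM in Prog-Tg, 39.2, 0.64 and 23.1 CPM in LA-Tg and 28.5, 49.2 and 8.24 CPM in WT ECs. The 9 libraries ranked alike by Adamtsl1 and by Prox1 except that the lowest places, of Prog-Tg 2 and LA-Tg 2, were exchanged. The part of lymphatic cells in the levels of these genes was not tested.

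**Figure D3:**
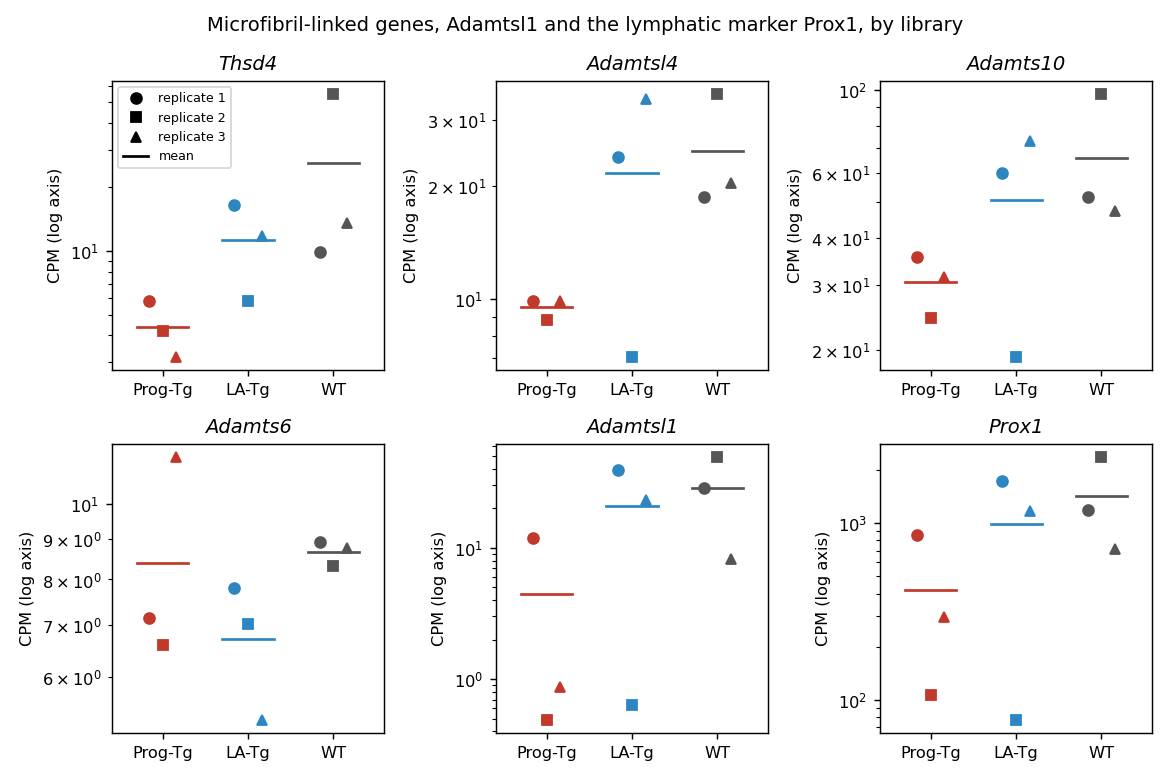
Levels (CPM, log axis) of Thsd4, Adamtsl4, Adamts10, Adamts6, Adamtsl1 and the lymphatic transcription factor Prox1 in Prog-Tg, LA-Tg and WT ECs, with each marker shape a replicate number and each line a mean. For Thsd4, Adamtsl4 and Adamts10 the 3 Prog-Tg libraries lie below the 3 WT libraries, and WT 2 (square) lies highest in these genes and in Adamtsl1 and Prox1.

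The inhibitors did not pass the study thresholds in any comparison. Timp2, the partner of Mmp14 in activating proMMP2, stood at 516, 675 and 706 CPM in Prog-Tg, 883, 884 and 1247 CPM in LA-Tg and 729, 1591 and 560.3 CPM in WT ECs. All Prog-Tg libraries were below all LA-Tg libraries, with a log2 fold change of -0.67 (SE 0.382, unadjusted p = 0.12). Timp2 was the only member whose groups did not overlap in this comparison, against 5.9% of all genes. In Prog-Tg versus WT its log2 fold change was -0.60 (SE 0.382), and -0.03 without WT 2.

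Timp3, which is bound to the matrix, stood at 545, 241 and 229 CPM in Prog-Tg, 586, 255 and 685 CPM in LA-Tg and 576, 1410 and 169 CPM in WT ECs. The highest and the lowest library were both WT, and the log2 fold change in Prog-Tg versus WT was -1.09 (SE 0.724), or -0.14 without WT 2. Of its exon length, 21.28% is shared with Syn3 on the opposite strand. Timp1, a soluble inhibitor that is induced in inflammation, stood at 41.1, 23.1 and 91.0 CPM in Prog-Tg, 21.3, 20.95 and 62.8 CPM in LA-Tg and 27.4, 22.9 and 36.9 CPM in WT ECs. It was highest in the third replicate of each genotype, and its log2 fold change in Prog-Tg versus WT was 0.83 (SE 0.575), or 0.14 without Prog-Tg 3.

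Summed over the family, Timp genes reached 246, 229 and 312 RPKM in Prog-Tg, 323, 282 and 475 RPKM in LA-Tg and 289, 607 and 206 RPKM in WT ECs. Mmp genes reached 103, 155 and 168 RPKM in Prog-Tg, 90.7, 189 and 86.0 RPKM in LA-Tg and 106, 41.2 and 90.1 RPKM in WT ECs. Inhibitor RNA therefore exceeded MMP RNA in every library. The ratio of the sums was 2.38, 1.47 and 1.86 in Prog-Tg, 3.56, 1.49 and 5.52 in LA-Tg and 2.73, 14.7 and 2.29 in WT ECs, and the genotypes overlapped in it. Timp2 was the largest part of the Timp sum in each library, and protein was not measured.

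Mmp2, which cuts basement membrane collagen, made up most of the MMP sum in LA-Tg 2 and Prog-Tg 2. Its level was 141, 383 and 176 CPM in Prog-Tg, 113, 482 and 73.6 CPM in LA-Tg and 144, 17.0 and 111 CPM in WT ECs. LA-Tg 2 was the highest library, Prog-Tg 2 came next and WT 2 was the lowest, the reverse of their order in Prox1. The log2 fold change was 1.36 (SE 0.896) in Prog-Tg and 1.30 (SE 0.895) in LA-Tg versus WT, and 0.07 (SE 0.880) in Prog-Tg versus LA-Tg. Without WT 2 it was 0.87 in Prog-Tg versus WT. Without LA-Tg 2 it was 0.04 in LA-Tg versus WT and 1.32 in Prog-Tg versus LA-Tg. Mmp28 (epilysin) was likewise high in both of these libraries, with 4.17, 27.1 and 13.2 CPM in Prog-Tg, 3.37, 26.0 and 5.54 CPM in LA-Tg and 3.81, 3.61 and 17.9 CPM in WT ECs, and 12.03% of its exon length is shared with a gene on the opposite strand.

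Adamts1, Adamts5 and Adamts9 were highest in the first replicate of each genotype. Adamts1, which cuts versican and aggrecan, stood at 248, 65.3 and 68.8 CPM in Prog-Tg, 188, 56.9 and 128 CPM in LA-Tg and 280, 64.5 and 92.8 CPM in WT ECs. Adamts5 (aggrecanase 2) stood at 209, 40.2 and 27.2 CPM in Prog-Tg, 201, 34.9 and 75.3 CPM in LA-Tg and 242, 42.0 and 79.7 CPM in WT ECs. In both genes the first replicate of each genotype exceeded all 6 other libraries. The 2 genes are neighbours on chromosome 16, 53.1 kb apart. Adamts9, which lies elsewhere and cuts the same kind of substrate, shared the pattern with 65.0, 15.3 and 8.47 CPM in Prog-Tg, 56.5, 22.5 and 55.9 CPM in LA-Tg and 68.3, 13.03 and 11.8 CPM in WT ECs.

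Mmp14 completed this pattern at 242, 133 and 172 CPM in Prog-Tg, 222, 159 and 213 CPM in LA-Tg and 242, 85.1 and 204 CPM in WT ECs. Thus 4 of 31 members were higher in all 3 first replicates than in every other library, against 5.18% of all genes, and 0 members were so in the second replicates (3.5% of all genes). For Adamts1 the log2 fold change was -0.20 (SE 0.727) in Prog-Tg versus WT, -0.23 (SE 0.727) in LA-Tg versus WT and 0.03 (SE 0.727) in Prog-Tg versus LA-Tg. Adamts4 (aggrecanase 1) did not follow it, with 75.1, 25.4 and 35.6 CPM in Prog-Tg, 75.1, 24.7 and 82.6 CPM in LA-Tg and 78.6, 67.5 and 40.0 CPM in WT ECs. What the replicate number stands for is not given in the labels.

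**Figure D4:**
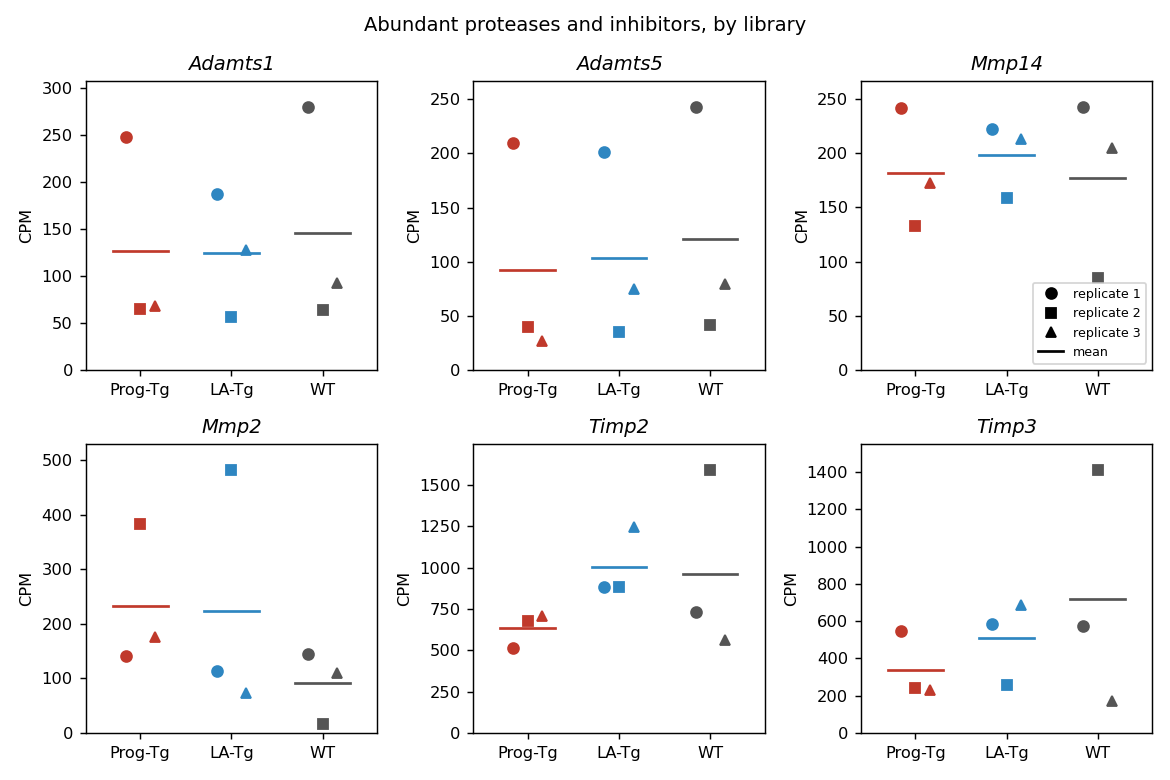
Levels (CPM) of 4 abundant proteases and 2 inhibitors in Prog-Tg, LA-Tg and WT ECs, with each marker shape a replicate number and each line a mean. For Adamts1, Adamts5 and Mmp14 replicate 1 (circle) was the highest of each genotype, Mmp2 was highest in LA-Tg 2 (482 CPM), and for Timp2 the 3 Prog-Tg libraries lie below the 3 LA-Tg libraries.

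Adamts2, the procollagen N-proteinase, was the most abundant member of its subgroup and was highest in the third replicates, with Adamtsl5 and Mmp10 (3 of 31 members, against 4.45% of all genes). It stood at 2.91, 0.93 and 16.5 CPM in Prog-Tg, 0.052, 1.45 and 24.4 CPM in LA-Tg and 0.27, 3.36 and 6.31 CPM in WT ECs. Its substrate gene Col1a1 stood at 28.8, 32.6 and 251 CPM in Prog-Tg, 0.68, 41.4 and 342 CPM in LA-Tg and 5.36, 53.4 and 135 CPM in WT ECs. Both were highest in LA-Tg 3 and lowest in LA-Tg 1. Pdgfrb, a receptor of pericytes, stood at 3.84, 2.24 and 22.2 CPM in Prog-Tg, 0.42, 4.18 and 23.8 CPM in LA-Tg and 1.16, 5.38 and 10.5 CPM in WT ECs, and the part of such cells in the level of Adamts2 was not tested.

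Adamts7, a protease of cartilage oligomeric matrix protein that is linked to coronary disease in human genetics, was highest and lowest in WT libraries. It stood at 161, 127 and 195 CPM in Prog-Tg, 115, 128 and 48.7 CPM in LA-Tg and 172, 25.8 and 320.1 CPM in WT ECs. Mmp19, which is made by many cell types, stood at 30.3, 23.7 and 21.7 CPM in Prog-Tg, 41.4, 19.6 and 42.8 CPM in LA-Tg and 41.9, 37.6 and 27.8 CPM in WT ECs. Its exons share 22.33% of their length with Tmem198b on the opposite strand. For both genes the ranges of the genotypes overlapped.

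LA-Tg and WT ECs were compared next. By the labels they differ in the trans-activator and in the unmutated lamin A transgene. Of the 31 members, 0 passed the study thresholds and 0 passed an adjusted p under 0.05 by edgeR's quasi-likelihood test, against 0.679% and 0% of all genes (0.35% higher and 0.329% lower). At an unadjusted p under 0.05 there were 121 genes (0.83%) and 0 members. The median log2 fold change of the members was -0.02, and 15 lay above 0 (49% of all genes). Thsd4 was at -1.20 (SE 0.661) here, or -0.05 without WT 2, and Mmp3 at -1.97 (SE 1.47). Mmp13 was at -0.69 (SE 1.35), Adamtsl4 at -0.19 (SE 0.494) and Adamts10 at -0.37 (SE 0.471). Adamts6 was the only member whose groups did not overlap (3.95% of all genes), with 7.81, 7.02 and 5.29 CPM in LA-Tg ECs, against 8.93, 8.32 and 8.76 CPM in WT ECs. Leaving out 1 library let 1 member pass the study thresholds in a direction: Timp2 higher and Adamts7 lower without WT 2, Mmp17 lower without LA-Tg 3 and Thsd4 lower without WT 1.

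Prog-Tg and LA-Tg ECs both carried a lamin A transgene, with and without the progeria mutation, and were compared last. At the study thresholds 3 of 31 members passed, against 1.25% of all genes, with Mmp3 and Mmp13 above LA-Tg (background 0.555%) and Adamtsl4 below it (background 0.693%). The median log2 fold change of the members was -0.12, and 14 lay above 0 (49.6% of all genes). Mmp3 stood at 4.01, 0.71 and 80.7 CPM in Prog-Tg ECs, against 0.42, 0.35 and 1.20 CPM in LA-Tg ECs, a log2 fold change of 5.46 (SE 1.64, unadjusted p = 0.0097). Mmp13 stood at 3.35, 0.93 and 48.7 CPM in Prog-Tg ECs, against 0.47, 1.39 and 1.05 CPM in LA-Tg ECs, a log2 fold change of 4.22 (SE 1.47, unadjusted p = 0.020). Without Prog-Tg 3 these were 1.85 and 1.15, and 0 members passed in either direction. With limma-voom 0 members passed as well, with an unadjusted p of 0.087 for Mmp3, 0.078 for Mmp13 and 0.099 for Adamtsl4. None passed an adjusted p under 0.05 by edgeR's quasi-likelihood test (adjusted p 0.9989 for all 31, with 250 of all genes or 1.71% at an unadjusted p under 0.05), while DESeq2 called 7 genes, of which Mmp3 was the only member (adjusted p = 0.025).

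Adamtsl4 had a log2 fold change of -1.18 (SE 0.503, unadjusted p = 0.045) in Prog-Tg versus LA-Tg. The lowest library was LA-Tg 2, and without it the value was -1.60 (unadjusted p = 0.00085), with 5 members below LA-Tg (Adamts10, Adamtsl4, Mmp11, Mmp19 and Thsd4). The count of lower members was 0 without Prog-Tg 2, without Prog-Tg 3, without LA-Tg 1 or without LA-Tg 3. The count of higher members was 4 without Prog-Tg 1, 5 without Prog-Tg 2 and 4 without LA-Tg 2, where Mmp1a, Mmp9, Mmp12 or Adamtsl3 joined Mmp3 and Mmp13. The filter on low counts was run again in each of these fits. Mmp1a and Mmp9 had not passed it with all libraries, and both were highest in Prog-Tg 3, so their joining adds no support of its own. In this comparison same-numbered libraries deviated together, so the replicate number was also fitted as a block. With the block Mmp3 was at 4.13 (unadjusted p = 0.014), Mmp13 at 2.68 (unadjusted p = 0.11) and Adamtsl4 at -1.11 (unadjusted p = 0.096), so that 1 member (Mmp3) was higher and 0 were lower at the study thresholds.

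**Figure D5:**
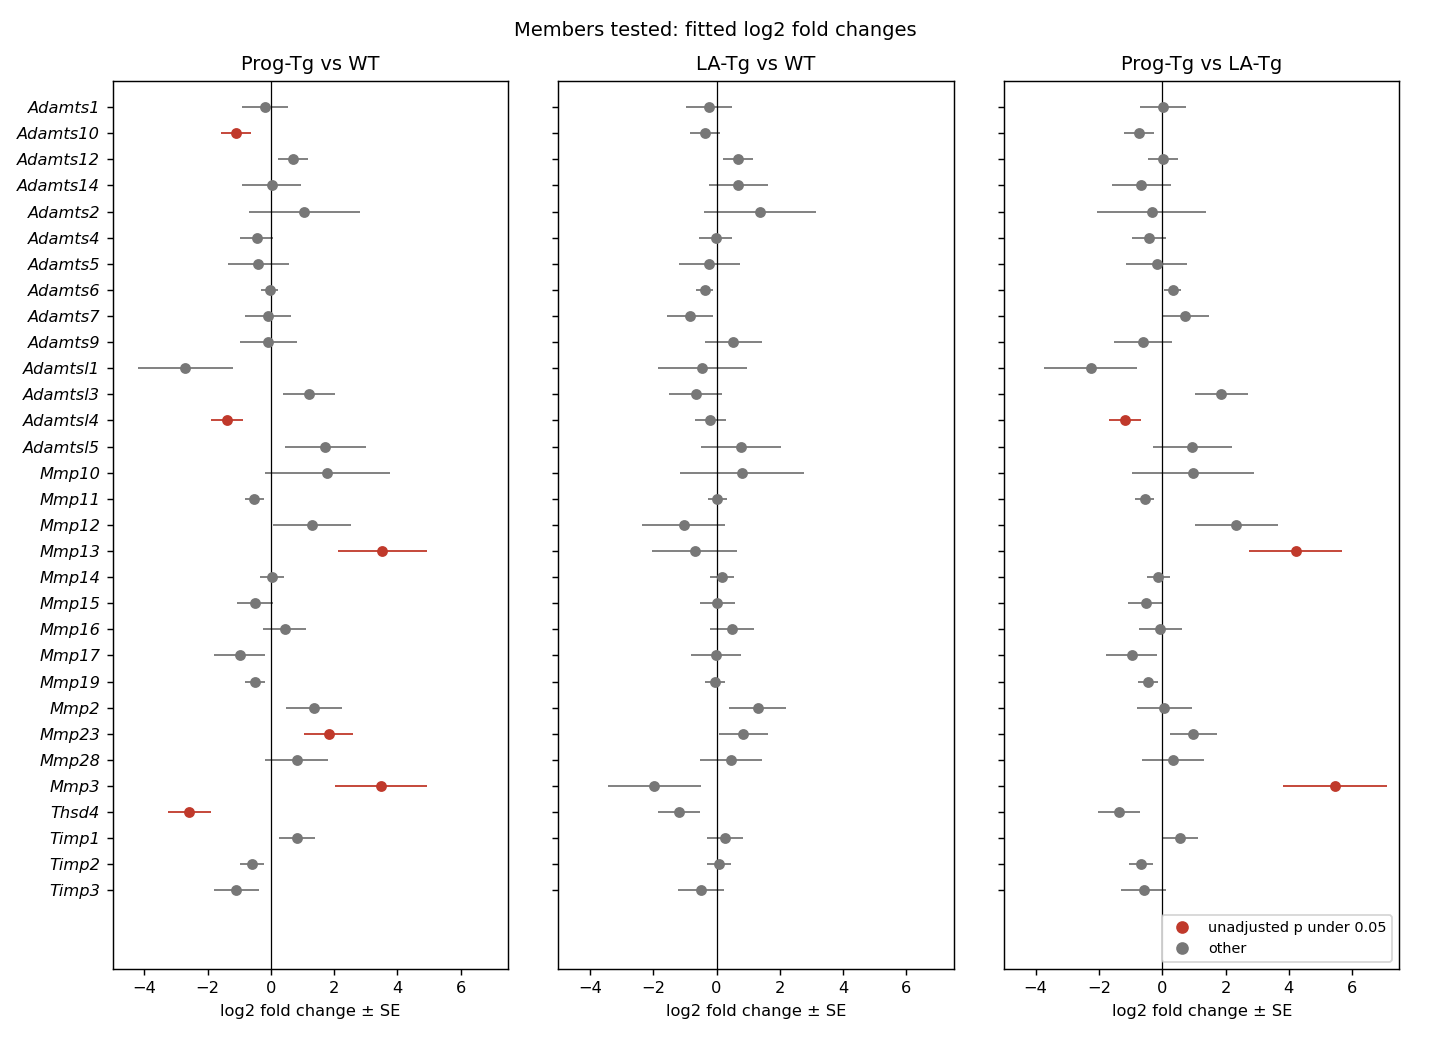
Fitted log2 fold changes with standard errors of the 31 members tested in Prog-Tg versus WT, LA-Tg versus WT and Prog-Tg versus LA-Tg ECs, with members at an unadjusted p under 0.05 in red. Mmp3 and Mmp13 lie far right in both comparisons of Prog-Tg with wide errors, Thsd4, Adamtsl4 and Adamts10 lie left in Prog-Tg versus WT, and no member is red in LA-Tg versus WT.

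Genes that act with these proteases were taken from lists of activators and other inhibitors, of substrates and of AP-1 subunits. Of 18 activators, clearance receptors and inhibitors, 13 were tested and 0 passed an adjusted p under 0.05 in any comparison. At the study thresholds 1 of the 13 was lower in Prog-Tg than in WT ECs (background 1.82%). It was Spock1, which encodes a proteoglycan that inhibits MMP activation, at 1.04, 0 and 0.68 CPM in Prog-Tg ECs, against 1.61, 13.8 and 6.94 CPM in WT ECs (log2 fold change -3.67, SE 1.47). Reck, a membrane-anchored inhibitor of Mmp2, Mmp9 and Mmp14 that is needed for vessel formation in mice, was the only one of the 13 lower in Prog-Tg than in LA-Tg ECs (background 0.693%), at 17.8, 10.96 and 14.9 CPM in Prog-Tg ECs, against 27.0, 16.0 and 23.6 CPM in LA-Tg ECs (log2 fold change -0.61, SE 0.265). In a check chosen after seeing the data, in which each library was left out in turn, Spock1 passed only without WT 1 and was at -2.87 (unadjusted p = 0.10) without WT 2, its highest library. Reck passed only without Prog-Tg 1 or without LA-Tg 2, and its log2 fold change ranged from -0.80 to -0.44.

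Of the 13 substrates and matrix partners, 10 were tested. In Prog-Tg versus WT 8 of these lay above 0 (49% of all genes), with a median log2 fold change of 0.74, against -0.01 for all genes. Of the 8, all but Fbn2 had their highest Prog-Tg level in Prog-Tg 3. In LA-Tg versus WT 5 of the 10 lay above 0 (median 0.06), and in Prog-Tg versus LA-Tg 6 did (median 0.37). Vcan, the proteoglycan that Adamts1, Adamts5 and Adamts9 cut, was at 15.9, 18.1 and 31.9 CPM in Prog-Tg ECs, against 6.73, 5.29 and 12.5 CPM in WT ECs, and it was the only one of the 10 past the study thresholds in Prog-Tg versus WT (log2 fold change 1.43, SE 0.552, background 0.939%). In the same check it passed without Prog-Tg 1, Prog-Tg 2 or WT 3, and was at 1.05 (unadjusted p = 0.11) without Prog-Tg 3. Dcn, a small proteoglycan whose levels are given above, was the only one of the 10 past them in Prog-Tg versus LA-Tg (log2 fold change 4.14, SE 1.52, background 0.555%), and it passed only without Prog-Tg 1 or without Prog-Tg 2, with 3.55 (unadjusted p = 0.061) without Prog-Tg 3. Fbn1, the microfibril protein that Thsd4, Adamtsl4 and Adamts10 act on, was at 56.0, 29.3 and 98.4 CPM in Prog-Tg, 83.0, 23.7 and 135 CPM in LA-Tg and 55.1, 184 and 138 CPM in WT ECs. The Prog-Tg and WT ranges of Fbn1 overlapped, and its highest library was again WT 2 and its lowest LA-Tg 2.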

How the data were processed

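The authors aligned reads to GRCm38 with STAR 2.5.1b and counted them per gene with HTSeq 0.5.4p3, and the deposited values are raw counts. A strand setting and the removal of duplicates by molecular identifiers are not given in the sources used here, so the floor of 3 counts covers counting error only. Of the 36 samples of the series, only the 9 libraries of EC mRNA were used, grouped by genotype from their labels. Positions and exon lengths came from GENCODE M21 (99.63% of gene IDs found).

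Tests on the counts used edgeR 4.0.16 (R 4.3.3): filterByExpr (minimum count 10, minimum total 15), TMM scaling, a fit of all 9 libraries by genotype, the quasi-likelihood F test and Benjamini-Hochberg adjustment over 14584 genes. The study thresholds were unadjusted p values under 0.05 and a fold change above 1.5. CPM were TMM-scaled. Alternatives were DESeq2 1.42.0, limma-voom (limma 3.58.1, the study's own method), no filter, a filter of over 1 CPM in 3 libraries, RLE scaling, library size alone, fitting the 2 groups alone, a replicate block, and leaving out each library. The script was tested on simulated data. The members and gene lists were chosen with earlier results of these data known. Fold changes are given for members past the study thresholds, the Timp genes, the leading member per length of the Mmp, Adamts and ADAMTS-like groups, and the tested Mmp genes of the chromosome 9 cluster, with a few others named after their values were seen.

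Between Prog-Tg and LA-Tg, libraries with the same replicate number deviated together from the group means (correlations 0.72, 0.67 and 0.32, each above 0.1). The main values of that comparison come from the fit without a block. The replicate block was fitted as an alternative only, over all 9 libraries. Taking the numbers as pairs there rests on the values, since the labels do not say what a number marks. 1 result is not reported here.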

Additional observations from a re-analysis of the deposited data

How the results depend on the processing

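Genes at an adjusted p under 0.05 numbered 0 in all 3 comparisons with edgeR and with limma-voom, and 2 in Prog-Tg versus WT and 7 in Prog-Tg versus LA-Tg with DESeq2, where 1 member (Mmp3, 5.45) was called. In Prog-Tg versus WT, 3 members were higher at the study thresholds, but 6 without a filter, 0 with limma-voom, 0 with only the 2 groups compared and 1 (Adamtsl5) with the replicate block. There 3 members were lower, but 4 with DESeq2 or without a filter (Adamtsl1 added) and 2 with limma-voom, library size alone or the replicate block, where Adamts10 was lost (unadjusted p = 0.067, 0.057 and 0.075). In LA-Tg versus WT, 1 member (Adamts8) was higher without a filter and 1 (Mmp3) lower with only the 2 groups compared. In Prog-Tg versus LA-Tg, 2 members were higher, but 5 without a filter, 0 with limma-voom and 1 with the replicate block, and 1 was lower, but 2 with DESeq2, without a filter or with only the 2 groups compared, and 0 with limma-voom, library size alone or the replicate block. Mmp10 in LA-Tg versus WT was at 0.80, but at -1.89 with limma-voom and -1.14 with the block, and Adamts1 in Prog-Tg versus LA-Tg was at 0.03, but at -0.041 with limma-voom and -0.11 with the block. The cause of these differences was not tested, other than that without a filter more members were tested.

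Leaving out 1 library moved the number of genes called from 0 to 1 in Prog-Tg versus WT (1 without Prog-Tg replicate 1). The members higher ranged from 0 to 4 and those lower from 1 to 5 in Prog-Tg versus WT, from 0 to 1 each in LA-Tg versus WT, and from 0 to 5 each in Prog-Tg versus LA-Tg. The filter was run again in each of these fits, so the members tested were not always the same 31. In Prog-Tg versus WT, log2 fold changes ranged from -1.13 to 0.69 for Adamts1, from -1.89 to 2.5002 for Mmp10 and from -0.12 to 4.05 for Mmp3. In LA-Tg versus WT, they ranged from -0.66 to 0.66 for Adamts1, from -0.73 to 0.036 for Adamts10, from -0.67 to 0.22 for Adamtsl4, from -4.01 to 1.52 for Mmp10, from -0.46 to 0.53 for Timp1, from -0.21 to 0.64 for Timp2 and from -0.97 to 0.45 for Timp3. In Prog-Tg versus LA-Tg, they ranged from -0.90 to 0.46 for Adamts1, from -2.69 to 5.78 for Mmp10, from -0.49 to 1.32 for Mmp2, from -0.18 to 1.58 for Mmp23 and from -0.13 to 1.29 for Timp1. Thsd4, Adamtsl4 and Adamts10 stayed below 0 in both comparisons of Prog-Tg under every alternative run. Same-numbered libraries did not all deviate together in Prog-Tg versus WT (correlations 0.50, -0.03 and 0.47) or in LA-Tg versus WT (0.38, -0.38 and -0.13). These correlations do not exclude a pairing. The paper describes primary cells from littermate pairs, but the labels do not tie replicate numbers to litters. With 3 libraries per genotype and a median standard error of 0.73 on the log2 scale for the members in Prog-Tg versus WT, against 0.29 for all genes, moderate changes of these genes were not detectable at this replication.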
